A study of Mus musculus with 18 samples.

Results

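A set of 10 genes of parietal cells was followed through every cluster of adult mouse stomach cells. They were the 3 estrogen-related receptors *Esrra*, *Esrrb* and *Esrrg*, the fatty acid receptor *Ppara*, the coactivators *Ppargc1a*, *Ppargc1b* and *Perm1*, and the factors *Mitf*, *Ybx2* and *Tfam*. They were chosen by name, with earlier results of these data known. They are 10 of the 31201 gene names in the 2 datasets, and all 10 are listed in both. The cells came from stomachs of wild-type male C57BL/6J mice aged 10 weeks, with no treatment and no altered allele, and were sorted singly into the wells of plates and sequenced with Quartz-Seq2, a method that counts the 3′ ends of transcripts by unique molecular identifiers (UMIs). Dataset 1 held live corpus and antrum cells and dataset 2 live, nucleated corpus cells from a changed dissociation protocol. In each dataset 2 pools of 3 mice were prepared by 2 operators, on 3 plates a pool in dataset 1 and 6 in dataset 2, so the pool was the replicate (n = 2) and pool and operator cannot be told apart. Cluster names are those of the study: parietal cells were clusters 1 and 8 of dataset 2 (458 and 244 of 3993 cells) and cluster 0 of dataset 1 (57 of 491 cells).

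Estrogen-related receptors are nuclear receptors without a known natural ligand. They bind DNA as single molecules or pairs and switch on genes of the citrate cycle, the respiratory chain and fatty acid oxidation, and their activity depends on coactivators of the PGC-1 family, which carry no DNA-binding domain of their own. Tissues with many mitochondria, such as heart, brown fat, kidney and slow muscle, are rich in these proteins, and the acid-secreting parietal cell, which spends much ATP on the gastric proton pump, is the most mitochondria-rich cell of the stomach lining.

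The labels were checked first, on levels in CPM (counts scaled to a fixed library total and corrected by TMM, a factor set by the bulk of genes). The summed level of 7 parietal markers, among them the proton pump subunits *Atp4a* and *Atp4b*, was 72180.0 and 64493 CPM in cluster 1, 43921 and 48108 in cluster 8, and 635 and 615 in mature pit cells, each for pools K and T. Of these markers, 6 were called higher in parietal cells than in the other types, and *Slc9a4* was lower (log2 fold change -0.28 ± 0.08, edgeR). Plates held 10540256 to 12850942 UMIs in dataset 2 and 3054370 to 5346035 in dataset 1. A median kept cell had 31020 and 38757 UMIs, and the same well barcodes served every plate, so 3993 cells of dataset 2 shared 384 barcodes and were told apart by plate. As a measure of free RNA, *Atp4b* stood at 0.301% to 0.830% of its parietal level in the other epithelial types of dataset 2. Because the clusters were drawn by the study from these same counts, p-values below describe how far apart clusters lie and are no independent test that they exist.

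The genes lie on different chromosomes in the mouse build GRCm39. *Esrrg* spans chr1:187340988-187947082 on the plus strand, *Esrrb* chr12:86407887-86568409 on the plus strand, *Ppargc1a* chr5:51611592-51725068 on the minus strand and *Ybx2* chr11:69826474-69832432 on the plus strand. The 250 bases before and 50 from the start site of their canonical GENCODE transcripts are shown because the results turn on these genes. The windows are chr1:187729774-187730073 (plus), chr12:86468168-86468467 (plus), chr5:51711215-51711514 (minus) and chr11:69826372-69826671 (plus), each written 5′ to 3′, and capitals mark a motif match.
Esrrg: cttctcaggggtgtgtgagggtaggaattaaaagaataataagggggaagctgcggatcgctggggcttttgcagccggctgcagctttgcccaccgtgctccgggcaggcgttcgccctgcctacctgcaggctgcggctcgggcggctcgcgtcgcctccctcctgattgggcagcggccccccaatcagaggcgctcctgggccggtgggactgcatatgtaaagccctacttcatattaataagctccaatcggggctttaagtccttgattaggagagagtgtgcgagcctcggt
Esrrb: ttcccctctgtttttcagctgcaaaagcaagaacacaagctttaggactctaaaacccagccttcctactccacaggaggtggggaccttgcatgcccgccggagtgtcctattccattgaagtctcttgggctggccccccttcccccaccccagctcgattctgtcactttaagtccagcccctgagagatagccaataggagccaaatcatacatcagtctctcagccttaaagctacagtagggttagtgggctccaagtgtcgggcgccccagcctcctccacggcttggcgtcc
Ppargc1a: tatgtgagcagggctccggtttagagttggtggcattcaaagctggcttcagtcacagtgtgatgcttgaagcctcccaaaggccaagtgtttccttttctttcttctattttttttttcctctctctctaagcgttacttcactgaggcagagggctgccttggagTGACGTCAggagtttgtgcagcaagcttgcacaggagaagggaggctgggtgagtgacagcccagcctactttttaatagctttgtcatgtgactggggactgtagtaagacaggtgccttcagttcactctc
Ybx2: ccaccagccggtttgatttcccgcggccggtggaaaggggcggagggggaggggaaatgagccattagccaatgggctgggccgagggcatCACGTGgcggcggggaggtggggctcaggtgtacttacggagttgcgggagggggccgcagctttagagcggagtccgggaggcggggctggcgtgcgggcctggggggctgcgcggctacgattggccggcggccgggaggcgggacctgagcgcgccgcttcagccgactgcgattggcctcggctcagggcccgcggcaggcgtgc
Both strands were searched for 4 motifs, of which the last was added after the sequences had been read. None of the 10 members had the extended receptor element TNAAGGTCA (N, any base), which 1.24% of 21757 protein-coding promoters held, or a PPAR element, 2 direct repeats of AGGTCA spaced by 1 base (0.0460%). The E-box CACGTG, the site of MiT factors such as MITF, was found in the *Ybx2* window at position -159 from the start, and in 7.82% of all promoters. The cyclic AMP response element TGACGTCA was found in the *Ppargc1a* window at position -83, and in 2.45% of all. Neither match overlapped another. Absence of a match says only that these letters are not in the window. The counts do not show which start site was used in these cells.

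**Figure D1:**
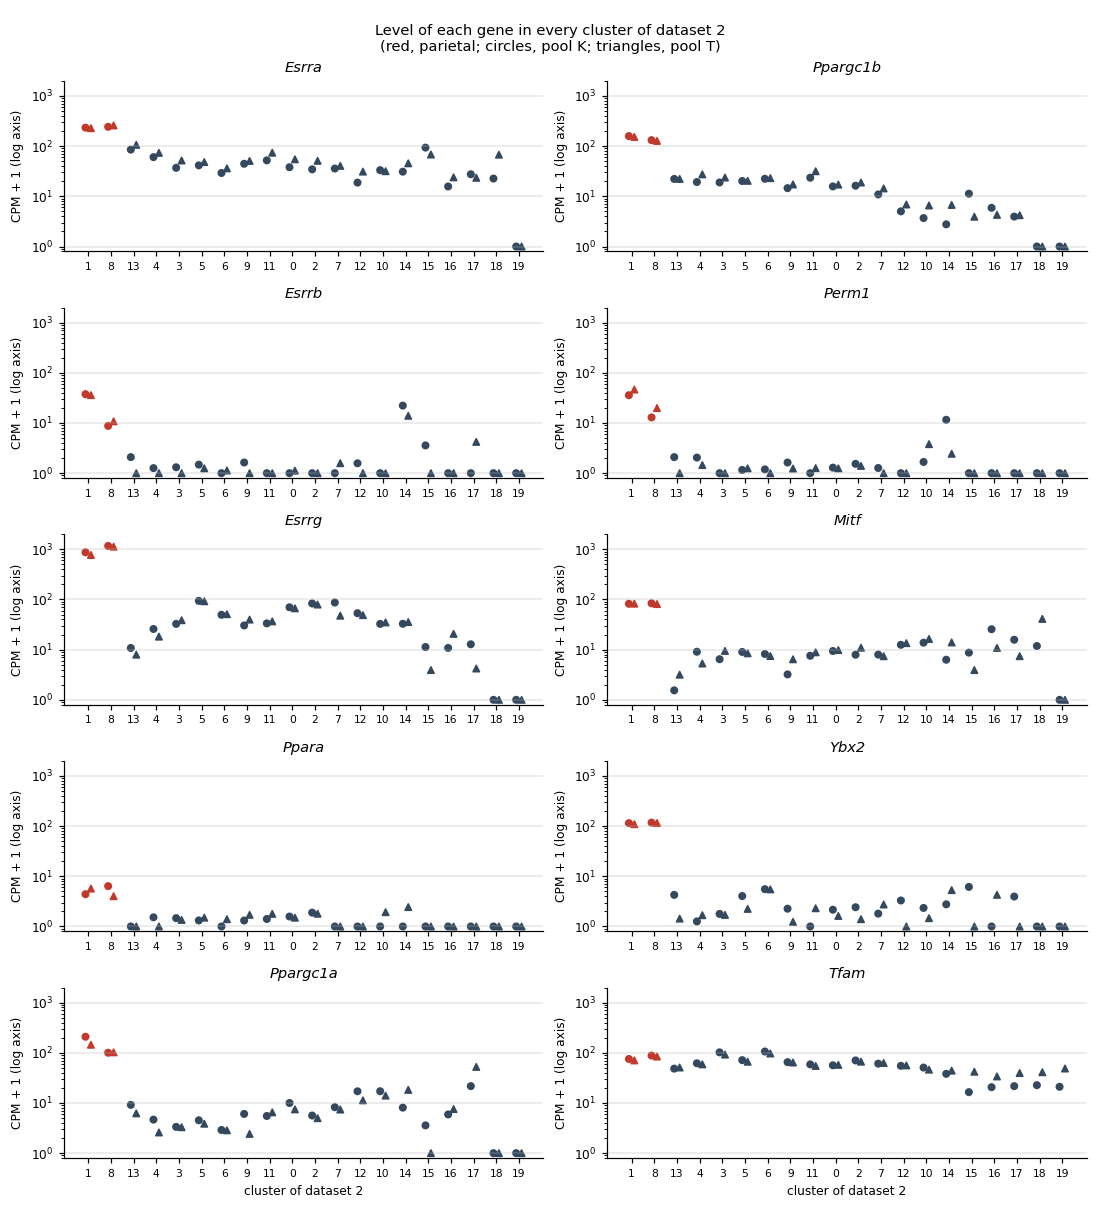
Level of each of the 10 genes (CPM plus 1, log axis) in the 20 clusters of dataset 2, with a circle for pool K and a triangle for pool T and parietal clusters 1 and 8 in red. The 8 genes other than *Esrrb* and *Tfam* are highest in both parietal clusters, with *Esrrg* between 769 and 1167 CPM there, *Esrrb* is higher in cluster 14 than in cluster 8, and *Tfam* is highest in isthmus clusters 6 and 3.

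Among the receptors, *Esrrg* was the most abundant in parietal cells and *Esrrb* had the largest share of its UMIs there in dataset 2 (94.0% against 82.1% for *Esrrg*), whereas in dataset 1 *Esrrg* had the larger share (94.3% against 88.1%, from 42 *Esrrb* UMIs). *Esrrg* stood at 869.8 and 769 CPM in cluster 1 (pools K and T) and at 1167 and 1128 CPM in cluster 8. The next cluster, isthmus cluster 5, was at 92.8 and 91.1 CPM, followed by neck cluster 2 at 82.2 and 78.2 CPM, and mature pit cells were at 9.80 and 6.94 CPM. Clusters 8, 1, 5 and 2 were in this order in both pools, whereas neck cluster 7 (86.0 and 46.5 CPM) overlapped with clusters 2, 0 and 12. In isthmus cells as a whole *Esrrg* was at 5.55% of its parietal level and in neck cells at 7.36%, against 0.491% and 0.521% for *Atp4b* in the same cells.

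*Esrra*, the family member found in most tissues, was not confined to parietal cells. It was at 233 and 227 CPM in cluster 1, 242 and 258 CPM in cluster 8, and 84.4 and 105 CPM in mature pit cells, the next highest, which overlapped with cluster 15 (92.6 and 67.2 CPM). *Esrrb*, best known from embryonic stem cells and the inner ear, was at 36.6 and 35.0 CPM in cluster 1 and 7.76 and 9.79 CPM in cluster 8. Between these lay cluster 14, named as histamine-producing enterochromaffin-like (ECL) cells, at 21.2 and 12.9 CPM from 21 UMIs in 53 cells. The other 17 clusters held 18 *Esrrb* UMIs together. Cluster 14 carried the ECL markers *Hdc* and *Slc18a2* at 9052 and 6495 CPM, its parietal markers summed to 367 and 479.6 CPM, and it also held *Ghrl*, the marker of X/A cells, at 13696 and 21040.0 CPM. *Ppara*, the receptor for fatty acids, was scarce: parietal cells held 100 of its 140 UMIs in dataset 2, or 3.40 and 4.69 CPM in cluster 1 and 5.37 and 3.01 CPM in cluster 8, which overlapped.

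All 3 coactivators were highest in cluster 1. *Ppargc1a*, which encodes PGC-1α, was at 207.7 and 143.6 CPM in cluster 1 and 99.2 and 101 CPM in cluster 8. X/A cell cluster 17 followed at 20.6 and 51.3 CPM from 23 UMIs in 29 cells, then chief cells (16.1 and 13.01 CPM) and neck cluster 12 (16.1 and 10.3 CPM), which overlapped. *Ppargc1b*, encoding PGC-1β, was at 158 and 152 CPM in cluster 1, 131 and 126 CPM in cluster 8 and at most 30.6 CPM elsewhere. *Perm1*, a muscle regulator named for its induction by PGC-1 and the estrogen-related receptors, was at 34.8 and 45.4 CPM in cluster 1 and 11.9 and 18.8 CPM in cluster 8. In dataset 2, parietal cells held 728 of 766 *Perm1* UMIs, and cluster 14 was again next, at 10.6 and 1.44 CPM from 7 UMIs.

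*Mitf*, a factor of lysosome and pigment genes, was at 81.0 and 81.5 CPM in cluster 1 and 82.7 and 80.0 CPM in cluster 8, which did not differ beyond the pools, and at 12.8 and 15.3 CPM in chief cells. *Ybx2*, a Y-box RNA-binding protein best known from germ cells, was at 114 and 108.5 CPM in cluster 1 and 117 and 114 CPM in cluster 8. Its next cluster, isthmus cluster 6, was at 4.54 and 4.49 CPM. *Tfam*, which packs and transcribes mitochondrial DNA, had the flattest profile: isthmus clusters 6 (105 and 95.9 CPM) and 3 (101 and 91.0 CPM) overlapped and lay above cluster 8 (87.1 and 83.2 CPM), and cluster 1 (74.3 and 69.5 CPM) overlapped with isthmus cluster 5 (70.4 and 65.3 CPM). In all, parietal cells gave 24.7% of the UMIs of kept cells in dataset 2 but 94.7% of the *Ybx2*, 95.04% of the *Perm1*, 94.0% of the *Esrrb* and 21.8% of the *Tfam* UMIs.

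Cells were also counted, after thinning each to 10000 UMIs (0 cells of cluster 1, 1 of cluster 8, 4 mature pit cells and 2 of cluster 14 were shallower and left out), with mature pit cells as a type expected to lack most of these transcripts. An *Esrrg* UMI was found in 96.7% of cluster 1 cells (95% Wilson interval 94.7% to 98.0%) and 98.8% of cluster 8 cells, against 7.69% of mature pit cells (4.1% to 14%) and 48.4% of isthmus cluster 5 (42.6% to 54.2%). Without thinning the shares were 100%, 100%, 23.1% and 84.2%, at median depths of 45390, 51291, 43578 and 50083 UMIs. *Esrrb* was found in 20.1% of cluster 1 cells (16.7% to 24%), 4.94% of cluster 8 cells (2.85% to 8.43%), 15.7% of cluster 14 cells (8.17% to 28%) and 0 of 117 thinned mature pit cells, a count that allows up to 2.56% (3 cells) with a UMI at this depth. Unthinned, these were 55.9%, 23.8%, 20.8% and 1.65%, with a median depth of 17920 UMIs in cluster 14. *Perm1* was found in 20.5% and 11.5% of cells of clusters 1 and 8 and in 0.855% of mature pit cells, and *Ybx2* in 48.3%, 51.0% and 0.855%. Unthinned, *Perm1* was at 59.6%, 41.4% and 1.65%, and *Ybx2* at 90.4%, 88.1% and 5.79%. Intervals cover counting error only, and cells of 1 pool are not replicates.

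Sums per type and pool were used to set parietal cells against 5 epithelial types of dataset 2 (mature pit, pre-pit, isthmus, neck and chief), averaged on the log scale. All 10 members were called higher at an adjusted p under 0.05 (edgeR, two-sided), where 35.2% of the 13894 genes tested were (67.8% in either direction). Of the members, *Esrrb*, *Ppara* and *Perm1* passed the filter on low counts only through the parietal sums and had to differ, so nothing rests on their calls. The study had placed *Esrrg*, *Esrra*, *Ybx2* and *Mitf* in a parietal gene group drawn from dataset 2. Their calls in this dataset, also against isthmus cells, are therefore no independent support. All 10 members were chosen with earlier results of these data known, so their count of calls in either dataset is no independent support either. On the type sums *Esrrg* was at 799 and 793 CPM in parietal cells and at most 63.9 CPM in any other, with a log2 fold change of 5.04 ± 0.08 (SE) (edgeR adjusted p = 4.5e-15). *Ppargc1a* was at 137 and 104 CPM against at most 12.5 CPM (4.73 ± 0.12, edgeR adjusted p = 3.4e-13). *Ybx2* was at 93.6 and 94.0 CPM against at most 2.65 CPM (6.71 ± 0.15). The differences were 3.78 ± 0.12 for *Mitf*, 3.33 ± 0.10 for *Ppargc1b* and 2.22 ± 0.11 for *Esrra*. For these 6 genes parietal values lay above all 10 other sums.

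*Tfam* rose least, by 0.41 ± 0.06 (edgeR adjusted p = 5.8e-05), with 64.5 and 64.2 CPM in parietal cells inside the range of isthmus cells (70.01 and 63.1 CPM). For the scarce members, UMIs were set side by side. Parietal cells held 612 *Esrrb* UMIs against 16 in the other 5 types, a ratio of unscaled CPM of 114 (exact 95% interval 69.5 to 200.3). The ratio was 69.8 for *Perm1* (728 against 31 UMIs, 48.8 to 103.5) and 7.62 for *Ppara* (100 against 39 UMIs, 5.22 to 11.3). These intervals treat UMIs as independent and leave out the spread between pools.

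Against isthmus cells alone, the progenitors of the gland, 9 of 10 members were called higher, beside 35.2% of the genes tested (71.8% in either direction). The calls of *Esrrb*, *Ppara* and *Perm1* were again bound by the filter, and 6 of the other 7 were called. *Esrrg* was higher by 4.20 ± 0.13, *Ppargc1a* by 5.69 ± 0.18 and *Ppargc1b* by 2.85 ± 0.12 on the log2 scale. *Tfam* was not called, at a log2 fold change of -0.02 ± 0.08 (edgeR adjusted p = 0.81).

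**Figure D2:**
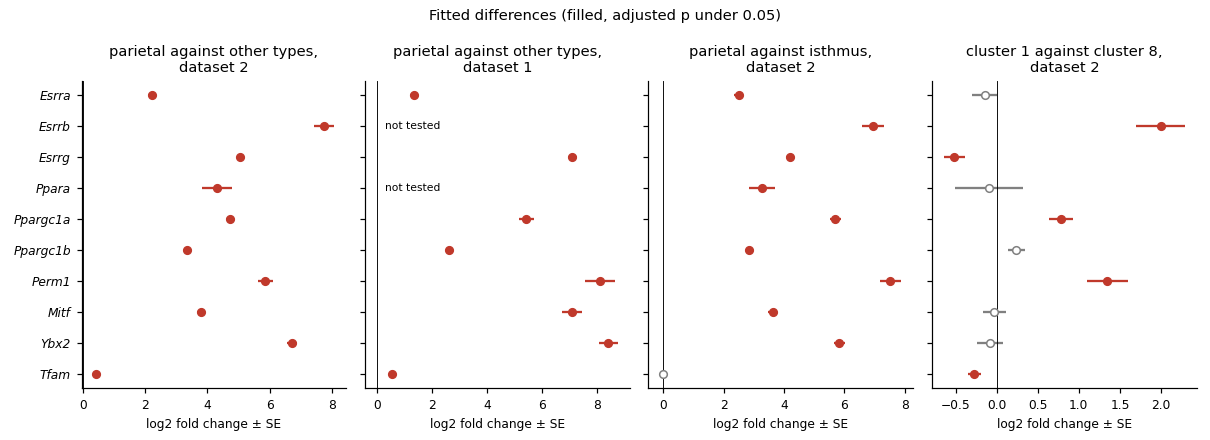
Log2 fold changes with standard errors of the 10 genes in the 4 comparisons, filled where the edgeR adjusted p was under 0.05. The first 3 panels lie to the right of 0 except *Tfam* against isthmus, and the last panel, cluster 1 against cluster 8, has values on both sides.

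Dataset 1 was prepared from other mice with another dissociation and includes the antrum. In parietal cluster 0 the levels in tube1 and tube2 were 918 and 802 CPM for *Esrrg*, 129 and 189 CPM for *Ppargc1a*, 108 and 125 CPM for *Ppargc1b*, 108 and 119 CPM for *Ybx2* and 35.7 and 31.6 CPM for *Perm1*. Parietal cells were compared with 6 other types (corpus and antrum mature pit and pre-pit, neck and an isthmus-like group). *Esrrb*, with 37 parietal UMIs, and *Ppara*, with 10, fell under the filter, and the other 8 members were called higher, where 31.7% of 10229 genes were (58.6% in either direction, 26.9% lower). *Perm1*, *Ybx2*, *Mitf* and *Ppargc1a* passed the filter only with the parietal sums, so nothing rests on their calls. *Esrrg* was higher by 7.10 ± 0.16, *Ppargc1b* by 2.63 ± 0.13, *Esrra* by 1.35 ± 0.14 and *Tfam* by 0.56 ± 0.13 on the log2 scale. Each had an edgeR adjusted p of at most 0.00082, but for *Tfam* DESeq2 gave an adjusted p of 0.059. *Perm1* had 92 UMIs in the 57 parietal cells and 0 in the other 434 cells. Set against 3 UMIs over all of the 6 types, the ratio of unscaled CPM was 113. This ratio leaves out counting error in the parietal UMIs and the spread between pools. *Ybx2* had 322 parietal UMIs against 6, and *Mitf* 220 against 18.

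**Figure D3:**
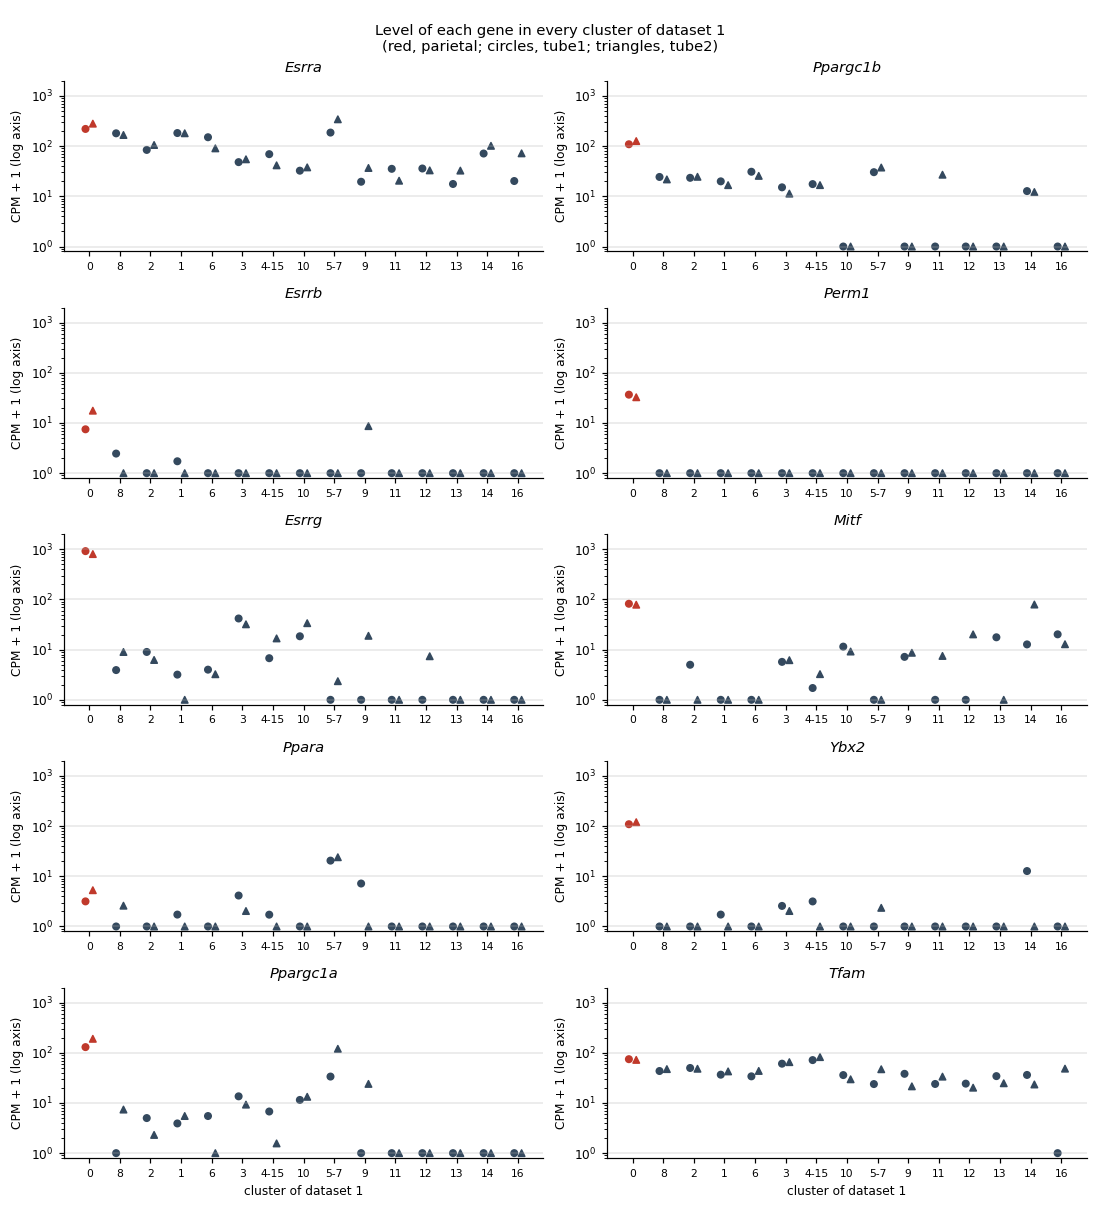
Level of each gene (CPM plus 1, log axis) in the 15 clusters of dataset 1, with a circle for tube1 and a triangle for tube2 and parietal cluster 0 in red. *Esrra* and *Ppara* in cluster 5-7 reach or pass the parietal level, with *Ppara* at 19.5 and 23.0 CPM.

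Cluster 5-7 of dataset 1, whose enterocyte markers *Fabp2*, *Apoa1* and *Vil1* summed to 31419 and 33394 CPM, shared some of the members with parietal cells. These markers summed to 9437 and 8265 CPM in parietal cluster 0, nearly all from *Apoa1* (24153 UMIs, beside 9 of *Fabp2* and 2 of *Vil1*). In cluster 5-7 *Esrra* was at 186 and 342 CPM, overlapping with cluster 0 at 219.6 and 279.97 CPM. *Ppara* was at 19.5 and 23.0 CPM there from 23 UMIs, above cluster 0 at 2.16 and 4.28 CPM, and *Ppargc1a* was next to parietal cells at 32.6 and 119 CPM. *Esrrg* (1 UMI in 70 cells), *Perm1* (0 UMIs) and *Ybx2* (1 UMI) were nearly absent. Its median mitochondrial share was 13.4% of UMIs, against 17.4% in cluster 0 and at most 5.73% in the other clusters. In the mixed endocrine cluster 9 *Esrrb* had 3 UMIs in tube2, in which its ECL markers summed to 4860.3 CPM, and none in tube1, in which they summed to 30.9 CPM. Tube1 held 7 cells and 122542 UMIs of this cluster and tube2 17 cells and 310446 UMIs, so counts this small cannot tell the tubes apart.

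The 2 parietal clusters of dataset 2 differed in mitochondrial share, with a median of 22.8% of UMIs in cluster 1 and 12.6% in cluster 8, and 5 of 10 members differed between them where 27.2% of 12922 genes were called (14.9% higher in cluster 1 and 12.3% lower). The fit held 28 sums, those of 14 epithelial clusters in 2 pools. The spread behind its p-values was estimated over all of these clusters, with only 2 pools for each of clusters 1 and 8. *Esrrb*, *Perm1* and *Ppargc1a* were higher in cluster 1, and *Esrrg* and *Tfam* were lower. For *Esrrb* both pools of cluster 1 (36.6 and 35.0 CPM) lay above both of cluster 8 (7.76 and 9.79 CPM), a log2 fold change of 1.99 ± 0.30 (SE) (edgeR adjusted p = 3.2e-05). *Perm1* differed by 1.35 ± 0.25 (edgeR adjusted p = 0.00033) and *Ppargc1a* by 0.79 ± 0.15 (edgeR adjusted p = 0.00024), and the pools did not overlap. *Esrrg* was lower in cluster 1 by 0.51 on the log2 scale (log2 fold change -0.51 ± 0.13, edgeR adjusted p = 0.0038), so that the 2 receptors *Esrrb* and *Esrrg* differed in opposite directions. *Tfam* was lower by a smaller amount (-0.27 ± 0.08, edgeR adjusted p = 0.014).

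The other 5 members were not called: *Esrra* (-0.15 ± 0.15, edgeR adjusted p = 0.52), *Ppargc1b* (0.24 ± 0.11, 0.099), *Mitf* (-0.03 ± 0.14, 0.91), *Ybx2* (-0.08 ± 0.16, 0.76) and *Ppara* (-0.09 ± 0.42, 0.90, from 57 and 43 UMIs). With the pool as a replicate block *Ppargc1b* was called too (0.24, edgeR adjusted p = 0.044). On unscaled UMIs per cell its direction turned, with 4.79 and 5.12 in cluster 1 and 5.52 and 5.37 in cluster 8.

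**Figure D4:**
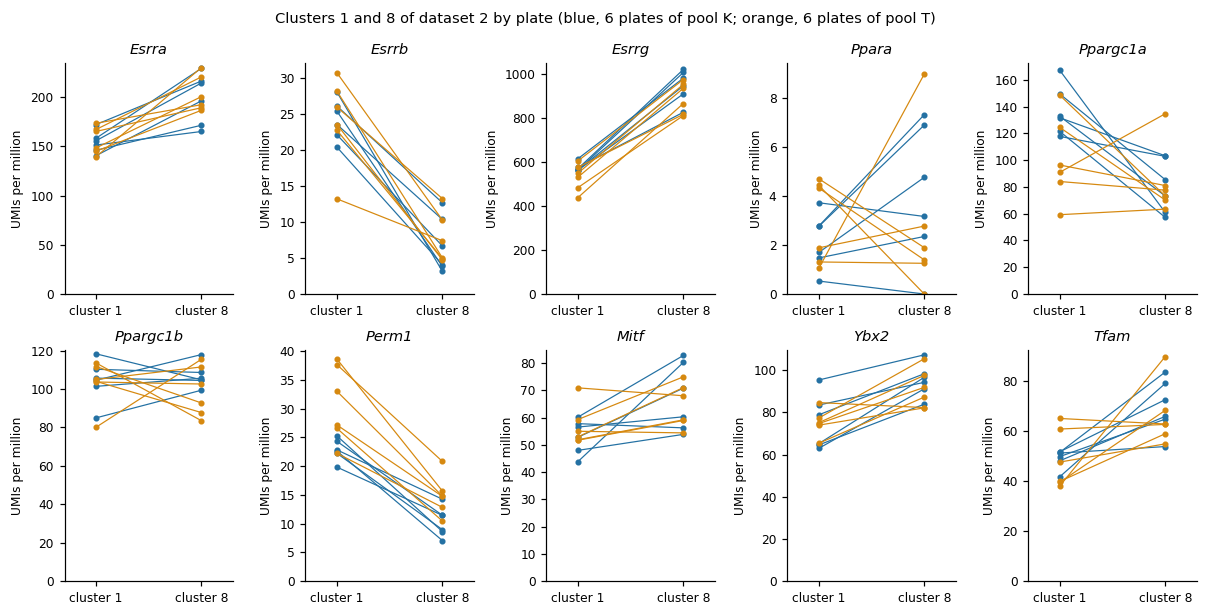
Unscaled CPM of each gene in clusters 1 and 8 on the 12 plates of dataset 2 (blue, pool K; orange, pool T), with a line joining the clusters of 1 plate. *Esrrg* is lower in cluster 1 on all 12 plates and *Esrrb* and *Perm1* are higher on all 12. Without scaling, every gene lies lower in cluster 1 relative to cluster 8 than in the scaled values.

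The clusters were also compared plate by plate, although plates of a pool share their mice. In CPM without a scaling factor, *Esrrg* ran from 438 to 615 (median 564) in cluster 1 and from 811 to 1021 (median 941) in cluster 8, and the plates did not overlap. *Esrrb* ran from 13.2 to 30.7 (median 24.4) against 3.13 to 13.2 (median 5.84), and was higher in cluster 1 on 12 of 12 plates. *Perm1* was higher on 12 of 12 plates and *Ppargc1a* on 10 of 12, both exceptions in pool T. *Tfam* was lower in cluster 1 on 11 of 12 plates, as was *Ybx2*, which the fit did not call, and *Mitf*, also uncalled, was lower on 9 of 12. *Esrra* was lower on 12 of 12 plates, 139.6 to 173.5 against 165 to 230.1, and was not called in the scaled fit either. Scaling raised every gene more in cluster 1 than in cluster 8. For *Esrra* in pool K it went from 154 to 233 CPM in cluster 1 and from 198 to 242 CPM in cluster 8. The counts of lower plates include this offset.

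Pools alone gave fewer calls. Without the sums of clusters 1 and 8 of pool K 2 members were called, *Esrrb* and *Perm1*, and without those of pool T 3, these and *Ppargc1a*. *Esrrg* then had an edgeR adjusted p of 0.051 and 0.072, at -0.57 and -0.47.

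Cells of like mitochondrial share were then compared. In cells of both clusters with a share from 16.5% to 19.9% (116 and 40 cells), no member was called by edgeR among 210 genes called in all, and *Esrrb* differed by 1.38 (edgeR adjusted p = 0.15), *Perm1* by 1.05 (0.20), *Ppargc1a* by 0.68 (0.10) and *Esrrg* by -0.18 (0.62). At an unadjusted p under 0.05 there were 3, *Esrrb*, *Perm1* and *Ppargc1a*, all higher in cluster 1. Pools K and T gave 67 and 49 cells of cluster 1 in this range but only 14 and 26 of cluster 8. The part of these small numbers of cells in the loss of calls was not tested. Within clusters the levels were set out by mitochondrial share, a division chosen after seeing the data. As CPM of nonmitochondrial UMIs, unscaled, *Esrrg* in cluster 8 was 1243.5 at shares of 5% to 10%, 1044 at 10% to 15% and 922 at 15% to 20%, and in cluster 1 it was 695 at 10% to 15% (21 cells), 814 at 15% to 20%, 710.2 at 20% to 25%, 623 at 25% to 30% and 493.2 at 35% to 40%. Both pools of the 15% to 20% bin lay apart, at 959 and 908 in cluster 8 and 877 and 742 in cluster 1. In the same bin *Esrrb* was 8.85 and 14.8 in cluster 8 and 30.1 and 33.2 in cluster 1, and it was 3.22, 7.53 and 13.1 over the 3 bins of cluster 8 but 22.1, 31.5, 33.9, 31.4, 32.8 and 20.1 over the 6 bins of cluster 1. *Perm1* was 10.3 and 19.9 in cluster 8 and 29.8 and 36.4 in cluster 1. In the other bin that both clusters filled, 10% to 15%, *Perm1* overlapped, at 15.5 and 18.4 in cluster 8 and 13.1 and 22.3 in cluster 1. *Esrrb* there was 6.90 and 8.15 against 30.6 and 13.4, and *Esrrg* was 1108 and 981 against 700.3 and 689. *Ppargc1a* lay apart in both bins, at 182 and 147 in cluster 1 against 109 and 115 in cluster 8 at 10% to 15% and at 199 and 126 against 122 and 91.9 at 15% to 20%. Within cluster 1 it was 165 in the lowest bin and 115 in the highest.

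**Figure D5:**
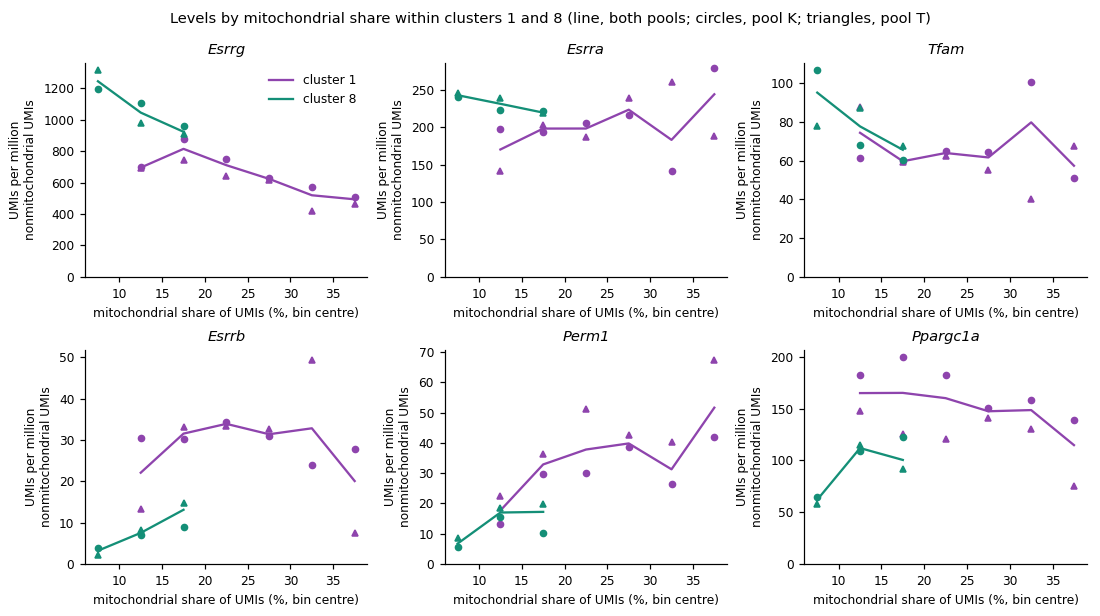
Level of 6 genes as unscaled CPM of nonmitochondrial UMIs against the mitochondrial share of UMIs, in bins 5 percentage points wide with at least 20 cells, for clusters 1 (purple) and 8 (green), with the pools as circles (K) and triangles (T). *Esrrg* is lower in the bins of higher share in cluster 8 and, from 15% up, in cluster 1, from 1243.5 to 922 in cluster 8, and *Esrrb* at 15% to 20% is 13.1 in cluster 8 and 31.5 in cluster 1.

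Other genes differed between the clusters as well. Of 8 genes that respond to tissue dissociation, 4 were lower in cluster 1 and none higher, with a median log2 fold change of -0.95 beside 0.01 over all genes. They summed to 1628 and 2286 CPM in cluster 1 and 4509 and 3409 CPM in cluster 8. The 3 chief cell markers summed to 5676 and 6605 CPM against 17198 and 12336 CPM, with *Pgc* called lower, and the isthmus markers to 37.6 and 34.6 CPM against 55.3 and 47.4 CPM, with *Hmgb2* lower and *Stmn1* higher in cluster 1. The 4 pit markers were all above 0 in both clusters, at 1189 to 2038 CPM in cluster 1 and 718 to 1481 CPM in cluster 8. Among endocrine markers, the ECL pair summed to at most 1.79 CPM in both clusters, and *Ghrl* was called higher in cluster 1 (146 and 38.8 against 28.04 and 27.86 CPM). Of the enterocyte markers, *Apoa1* was called higher in cluster 1 (1.13 ± 0.28, edgeR), at 16133 and 15650 CPM against 6392 and 7873 CPM, and *Fabp2* and *Vil1* were at most 1.69 CPM. The neck markers *Muc6* and *Tff2* and the D cell marker *Sst* were not called. *Slc26a7* (1.74 ± 0.18) and *Slc9a4* (0.29 ± 0.09) were the parietal markers called higher in cluster 1. Tuft, stromal, endothelial and leukocyte markers summed to at most 1.51 CPM each, and *Col1a1*, *Pdgfra*, *Cdh5* and *Kdr* were at 0. The parts of dissociation and of other cells' RNA in the differences of the members were not tested.

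The genes around the members were taken from 6 lists, also chosen with earlier results of these data known. Of 18 tested target genes of the estrogen-related receptors, 18 were higher in parietal cells than in the other types in dataset 2, where 35.2% of all genes were. Their median log2 fold change was 2.14 beside -0.03 over all genes. They included *Pdk4* (5.77 ± 0.16), which restrains pyruvate use, and *Slc25a4* (3.88 ± 0.08), the mitochondrial ATP carrier. In dataset 1 18 of 18 were higher too (median 2.08), where 31.7% of all genes were. Between clusters 1 and 8, 0 of 18 were higher and 3 lower by edgeR, where 14.9% and 12.3% of all genes were: *Idh3a* (-0.57 ± 0.09), *Mdh2* (-0.44 ± 0.08) and *Cs* (-0.42 ± 0.09), all of the citrate cycle. At an unadjusted p under 0.05, 1 was higher (*Sdha*) and 5 lower, and DESeq2 also called 0 higher and 3 lower.

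Of 20 tested PPARα targets, 15 were higher and 2 lower in parietal cells (median 1.34), where 35.2% and 32.6% of all genes were. *Fabp1* (8.53 ± 0.22) and *Fabp3* (7.50 ± 0.10), carriers of fatty acids, rose most. Between the clusters 6 of 19 were higher in cluster 1, led by the fatty acid transporter *Cd36* (1.80 ± 0.20) and *Fabp1* (1.08 ± 0.21), and 2 lower, *Acadvl* (-0.38 ± 0.09) and *Acaa1a* (-0.29 ± 0.10). Of all genes, 14.9% were higher and 12.3% lower.

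The counts of the next lists stand beside 35.2% of all genes higher and 32.6% lower in parietal cells, and 14.9% higher and 12.3% lower in cluster 1, and nothing particular to these lists is read from them. Of 30 other nuclear receptors tested, 14 were higher in parietal cells and 11 lower, with a median of 0.14. *Nr0b2* (4.87 ± 0.13), a receptor without DNA binding that restrains others, and the bile acid receptor *Nr1h4* (3.76 ± 0.24) rose most, and *Hnf4g* (-4.38 ± 0.97) and *Hnf4a* (-2.60 ± 0.09), receptors of gut and liver epithelium, fell most. Between the clusters *Rora* (1.24 ± 0.15) and *Hnf4a* (0.77 ± 0.13) led 3 that were higher in cluster 1, and *Vdr* (-2.59 ± 0.90) and *Nr1i2* (-1.56 ± 0.43) led 5 that were lower. Of 15 other coregulators, 7 were higher in parietal cells, among them *Lpin1* (1.23 ± 0.15), and 2 lower, of which *Pprc1* (-0.85 ± 0.11), the third PGC-1 family member, fell most. In clusters 1 and 8, 2 differed, *Lpin1* (0.82 ± 0.25) and *Crebbp* (0.36 ± 0.11), both higher in cluster 1.

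Of 16 genes of mitochondrial transcription and DNA maintenance, 8 were higher and 4 lower in parietal cells (median 0.15). *Mterf2* (2.17 ± 0.21) and *Tefm* (1.3 ± 0.13) rose most and *Nrf1* (-0.73 ± 0.13), a nuclear regulator of mitochondrial genes, fell most. *Twnk* (-0.45 ± 0.15), the mitochondrial helicase, was the 1 gene of this list that differed between the clusters. Of 8 genes tested beside *Mitf* and *Ybx2*, the lysosomal *Ctsd* (1.43 ± 0.06) and the related factor *Tfeb* (1.41 ± 0.13) led 4 that were higher in parietal cells, and the widely expressed Y-box genes *Ybx1* (-0.74 ± 0.07) and *Ybx3* (-0.51 ± 0.07) were lower, opposite to *Ybx2*. In cluster 1, *Mcoln1* (0.55 ± 0.13) and *Ctsd* (0.51 ± 0.09) led 3 that were higher than in cluster 8, and *Ybx1* (-0.33 ± 0.08) and *Ybx3* (-0.36 ± 0.07) were lower.

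Genes with the profile most like each member were sought among 15295 genes by Pearson's r of log2(CPM + 1) over the 20 clusters of dataset 2. The clusters share libraries and the parietal clusters weigh heavily, so these are descriptions. *Ppargc1b* was nearest to *Cox8a* (r = 0.964), *Cox5b* (0.962) and *Akap1* (0.961), the first 2 subunits of cytochrome oxidase, with r of 0.844, 0.779 and 0.704 over the 15 clusters of dataset 1. *Esrra* was nearest to *Sco2* (0.959), *Cript* (0.957) and *Lactb* (0.953), and *Esrrg* to *Smim11* (0.9498), *Cobll1* (0.944) and *Mccc2* (0.942). *Ppargc1a* was nearest to *Ubr3* (0.954), *Slc30a9* (0.942) and *Il11ra1* (0.921), and *Esrrb* to *Slc38a3* (0.925), *Tuba8* (0.907) and *Slc38a4* (0.905). *Perm1* was nearest to *Myzap* (0.956) and *Prlr* (0.949), *Ppara* to *Fabp12* (0.932) and *Sdha* (0.931) after *Slc26a7*, and *Tfam* to *Shmt1* (0.9625), *Rcc1l* (0.929) and *Thap12* (0.921). *Slc26a7*, an anion exchanger of the parietal membrane, was among the 3 nearest to *Perm1* (0.943) and *Ppara* (0.936), with 0.993 and 0.270 in dataset 1. *Ybx2* was nearest to *Amh* (0.9505), *Apoa4* (0.947) and *Rnase1* (0.946) and *Mitf* to *Ppp3cc* (0.918), *Slc25a28* (0.906) and *Slc38a10* (0.901). Over the 15 clusters of dataset 1, r was lower for every one of these pairs, between 0.232 and 0.907, except for *Perm1* and *Slc26a7*. Among the members, *Perm1* and *Ppara* (0.897) and *Esrrb* and *Perm1* (0.896) were most alike in dataset 2, and *Esrrb* and *Tfam* least (0.0957). In dataset 1 these pairs had r of 0.278, 0.824 and 0.340, and the most and least alike were *Perm1* and *Ybx2* (0.907) and *Esrra* and *Mitf* (-0.281).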

How the data were processed

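Cells of pooled stomach units were sorted into plates and sequenced with Quartz-Seq2. The authors demultiplexed reads (bcl2fastq 2.20.0.422), mapped them to GRCm39 and deposited counts of UMIs per gene and well, with cluster labels and the percent of mitochondrial UMIs per cell, both made with Seurat. Kept cells were those with a cluster label. No doublet caller was run here. Members and lists were chosen with earlier results of these data known. Counts were summed per cell type or cluster and pool and fitted with edgeR 4.0.16 (R 4.3.3; TMM scaling, filterByExpr, quasi-likelihood F test, two-sided, adjusted p threshold 0.05); DESeq2 1.42.0 was an alternative. CPM in the text is scaled by TMM unless stated otherwise. Sums of 1 pool come from the same mice: deviations from the type means correlated above 0.1 in 12 of 15 pairs of types in dataset 2 and in 0 of 21 in dataset 1, and a replicate block was fitted. All members are named, list genes only where called and at most 2 in each direction, and the 3 genes most like a member; the 3 citrate cycle genes and the markers of clusters 1 and 8 were named after their values were seen. The fits were tested on simulated data. Promoters were read from GRCm39 with GENCODE M39 starts. Values of some list genes are not reported here.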

Additional observations from a re-analysis of the deposited data

Results flagged for a closer look

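Values of the 10 members on the 6 plates of each pool were searched for a plate that stood far from the other 5 by Dixon's test at the 95% level, in clusters 1 and 8. Of 40 groups of plates 5 had such a plate, and chance gives about 1 in 20. In cluster 8 of pool T, *Ppargc1a* was 134.7 CPM (unscaled) on plate 2 and 63.4 to 81.1 on the others, and *Ppara* was 8.98 on the same plate and 0 to 2.77 on the others. In cluster 1 of pool K, *Esrrg* was 615 on plate 3 against 563 to 576, and *Tfam* was 41.8 on plate 4 against 48.1 to 51.8. In cluster 1 of pool T, *Ppargc1b* was 80.2 on plate 3 against 104 to 114.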

How the results depend on the processing

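Log2 fold changes of the members kept direction and side of the threshold in 98 of 98 recomputed values for parietal cells against the other types in dataset 2, in 97 of 98 against isthmus and in 76 of 77 in dataset 1, over another tool (DESeq2), RLE scaling, no filter, the replicate block, left-out pools, plates as samples, mitochondrial genes left out, thinned cells and the deepest cells left out. Without the members that passed the filter only through the parietal sums, whose calls were bound, these were 70 of 70, 69 of 70 and 39 of 40. The exceptions were *Tfam* against isthmus, which went from -0.02 to 0.035 without the parietal and isthmus sums of pool K (-0.076 without pool T), and *Tfam* in dataset 1 with DESeq2 (adjusted p = 0.059). Between clusters 1 and 8, 102 of 125 stayed, 14 lost the call, 4 gained it (all *Ppargc1b*) and 5 turned, none of these called: *Ppara* to 0.61 and *Mitf* to 0.0057 without pool K (-0.70 and -0.080 without pool T), *Mitf* to 0.13 and *Ybx2* to 0.021 with thinned cells, and *Mitf* to 0.16 in the common mitochondrial range. *Tfam* lost its call in 6 settings.

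The 3510 genes called between clusters 1 and 8 became 1919 with thinned cells, 210 in the common mitochondrial range and 1062 to 2348 when the sums of clusters 1 and 8 of pool K or T were left out, where the lone sum of each was taken to vary like the other clusters. Of the members, 0 were called in the common range and 2 to 3 with 1 pool left out. In dataset 1, 2613 genes were called with thinned cells, of 5304 tested, against 5997. With the replicate block 4062 genes and 6 members were called between the clusters, and *Ppargc1b* was the one call it changed. *Ppara* gave no value there with thinned cells, plates as samples, DESeq2 or all clusters in the fit. *Ppara* rests on 16 to 29 UMIs in each sum of clusters 1 and 8.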

Other observations

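The pools differed in the same direction for some members in most clusters, though not always in the parietal ones. Of the 16 clusters of dataset 2 with at least 20 *Esrra* UMIs, 13 were higher in pool T, and of 12 such clusters for *Ppargc1b* 10 were higher in pool T. For *Ppargc1a* 12 of 15 were higher in pool K. Parietal clusters were among the exceptions. In pools K and T, *Ppargc1b* was at 158 and 152 CPM in cluster 1 and 131 and 126 CPM in cluster 8. *Esrra* was at 233 and 227 CPM in cluster 1, and *Ppargc1a* at 99.2 and 101 CPM in cluster 8. Pool and operator cannot be told apart.

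Single cells of the parietal clusters held few UMIs of the scarce members. In cluster 1 there were 1.11 and 1.18 *Esrrb* UMIs per cell in pools K and T and in cluster 8 0.328 and 0.416, beside 26.4 and 26.0 *Esrrg* UMIs in cluster 1 and 49.3 and 48.0 in cluster 8.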
